A study of Mus musculus with 21 samples.

Results

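The genes described here encode the nuclear subunits of the mitochondrial respiratory chain. They were taken by symbol (Nduf with A, B, C, S or V and a number, Sdha to Sdhd, Uqcr, Cyc1, Cox4 to Cox8 and Atp5), which gave 84 of the 17164 genes counted. By complex these were 37 genes of complex I, 4 of complex II, 9 of complex III, 17 of complex IV and 17 of complex V. A filter on low counts kept 83 of them and removed Cox8b, the muscle form of a complex IV subunit. The symbols are not a perfect guide to the complexes. Ndufa4 is now assigned to complex IV, Cox7a2l is a factor of respiratory supercomplexes, and Atp5s and Atp5sl are not structural subunits of the ATP synthase.

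The respiratory chain sits in the inner mitochondrial membrane. Complexes I and II pass electrons from NADH and succinate to ubiquinone, complex III passes them to cytochrome c and complex IV to oxygen, while complexes I, III and IV pump protons that drive ATP synthesis by complex V. Most subunits are encoded in the nucleus and a small core by mitochondrial DNA, so assembly needs both genomes. Retinal ganglion cells send their axons through the optic nerve. The unmyelinated segments of those axons are packed with mitochondria, and these cells are the ones lost in optic neuropathies caused by complex I mutations.

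RNA was sequenced from cells sorted as retinal ganglion cells from C57BL/6 mice aged 6 to 7 weeks, 3 days after optic nerve crush in every group. The cells carried a control guide RNA (4 libraries) or guide RNAs against the stress response transcription factors ATF3 (5), ATF4 (2), CEBPG (4) or CHOP (5, gene Ddit3). In the submitters' sheet all controls were male and in batch 2, all ATF3, CEBPG and CHOP knockouts were female and in batch 3, and the ATF4 knockouts were in batch 1, replicate 1 female and replicate 3 male. Knockout and batch cannot be told apart in a comparison with control. For ATF3, CEBPG and CHOP against control, sex cannot be told apart from them either. The ATF3, CEBPG and CHOP groups can be compared within batch 3, where all libraries are labelled female. Among the members, Ndufa1, Ndufb11 and Cox7b lie on chromosome X, and the part of sex in the results was not tested. ATF4 replicate 1, labelled female, had the Y-linked gene Ddx3y at 61.5 CPM (read counts scaled to a fixed total per library) and Xist at 0.26 CPM, so its label and its RNA disagree. An edited gene can still be transcribed, and the labels used here do not give the share of edited cells. Nothing in the labels says that libraries came from separate animals, so each p-value reflects library-to-library spread, which may be technical.

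Counted reads per library ran from 6401446 to 32776378. Against control, Atf3 fell by 1.56 on the log2 scale in ATF3 knockouts (edgeR, SE 0.25, adjusted p = 2.41e-05), Atf4 fell by 0.97 in ATF4 knockouts (SE 0.18, adjusted p = 0.000211) and Ddit3 fell by 0.43 in CHOP knockouts (SE 0.12, adjusted p = 0.00908). Cebpg differed by -0.16 in CEBPG knockouts (SE 0.16, adjusted p = 0.491), so its RNA gives no check of that label. The share of reads from other retinal cell types differed between groups. The 15 rod markers held 3.97 to 5.98% of counted reads in the controls, against 0.457 to 0.486% in ATF3, 0.429 and 0.521% in ATF4, 0.378 to 0.61% in CEBPG and 0.575 to 0.96% in CHOP libraries, and all 15 were called lower in each knockout. The 12 amacrine markers held 0.134 to 0.244% in the controls and 0.284 to 0.736% in the knockouts. The 14 ganglion cell markers held 0.0534 to 0.083% over all libraries, and their members moved in both directions. In CEBPG knockouts 2 of 14 were called higher, Thy1 (1.96) and Ebf3 (1.33), and 4 lower, while the ganglion cell transcription factor Pou4f2 was at 0 in all 4 libraries. Pou4f2 was low throughout, with 0 to 2.97 CPM in the controls, 0 to 0.551 CPM in ATF3, 2.08 and 3.73 CPM in ATF4 and 0 to 1.57 CPM in CHOP knockouts. The 12 bipolar markers held 0.136 to 0.198% of reads in the controls, 0.173 to 0.197% in ATF3, 0.153 and 0.172% in ATF4, 0.0534 to 0.0908% in CEBPG and 0.069 to 0.0964% in CHOP libraries. The 11 cone markers held 0.322 to 0.444% in the controls, 0.162 to 0.192% in ATF3, 0.326 and 0.397% in ATF4, 0.105 to 0.155% in CEBPG and 0.167 to 0.195% in CHOP libraries. The 15 microglia markers held 0.529 to 0.846% in the controls, 0.676 to 0.76% in ATF3 and 0.694 and 0.891% in ATF4 libraries. They held 0.843 to 0.977% in CEBPG and 0.442 to 0.651% in CHOP libraries. The 12 Müller glia markers held 0.622 to 0.979% in the controls. In the controls the rod, microglia and Müller glia lists each held more reads than the ganglion cell list, so the levels below are those of a mixture. In bulk RNA, fewer cells of a type and less RNA per cell cannot be told apart, and the part of these markers in the results that follow was not tested.

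In the controls, the level of the members spanned a wide range when CPM were divided by exonic length (CPM per kilobase). Atp5b, the catalytic beta subunit of the ATP synthase, was highest of all, at 757 ± 30.4 CPM per kilobase (SD, n = 4). In complex IV the highest was Cox4i1, the common form of subunit 4, at 383 ± 64.8, and Cox8a followed at 270 ± 41.9. The highest gene with a complex I symbol was Ndufa4 at 335 ± 43.6, followed by Ndufb10 at 179 ± 19.2. In complex III, Uqcrc1, a core protein, was at 245 ± 14.4 and the small subunit Uqcrb at 226 ± 40.2, a difference within their spread. In complex II, Sdha, the flavoprotein that oxidises succinate, was at 191 ± 19.8 and the membrane anchor Sdhc was lowest at 42.7 ± 4.88. The low end held isoforms of other tissues and of hypoxia. Ndufa4l2 was at 1.16 ± 0.587, the testis form Cox7b2 at 0.51 ± 1.02, and Cox8b had no read in any control. Ndufs5, an accessory subunit of complex I, was at 4.01 ± 1.37, and Atp5g1 and Atp5g2, which encode the same c-ring protein as Atp5g3, were at 23.4 ± 4.96 and 21.9 ± 3.55 against 312 ± 45.9 for Atp5g3. Exonic length here joins the exons of all coding transcripts of a gene. It was 4912 bp for Atp5g1, 731 bp for Atp5g2 and 724 bp for Atp5g3, so the place of Atp5g1 beside the other 2 rests largely on that divisor. Other members with a long joined length, such as Sdhc (3171 bp), share this limit. Many members have processed pseudogenes, and the sources used here do not state how reads shared with such copies were handled, so levels of single members are uncertain to that extent.

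Promoters of respiratory chain genes are known to carry sites for NRF1, ETS factors such as GABP, and YY1. A RefSeq promoter window (GRCm38.p6) was found for 67 of the 84 members, and the 250 bases before the start were searched on both strands. The NRF1 motif was found in 13 of 67 members (19.4%) and in 4.23% of the 27025 genes with a window. The ETS letters CCGGAAGT were found in 3 members (4.48%, against 3.23% of genes), the YY1 letters AAGATGGC in 2 (2.99%, against 1.83%), and the letters TGATGCAA, one form of the element bound by ATF4 with C/EBP partners, in 0 of 67 (against 0.918%). The 4 motifs were searched one by one, and overlaps between them were not examined. The matches below are those of members higher in ATF4 knockouts (described in the next paragraphs) whose surrounding bases hold no annotated exon. They are shown 5′ to 3′ on the gene's strand with the match or its reverse complement in capitals and the first matched base 191, 98, 66, 117, 88 and 141 bases before the start in the order given. Atp5j also has a window at chr16:84835576-84835875 that holds none of the 4 motifs. Its distance is to the start of the other window, and the printed stretch lies within the annotated gene (chr16:84827866-84835625). A match is a run of letters and not evidence of binding.
Ndufb4 (NRF1, chr16:37654525-37654584, minus strand): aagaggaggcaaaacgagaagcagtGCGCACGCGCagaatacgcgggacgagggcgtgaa
Ndufs5 (NRF1, chr4:123718250-123718309, minus strand): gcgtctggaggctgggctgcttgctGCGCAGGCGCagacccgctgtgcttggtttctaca
Uqcr11 (ETS, chr10:80406855-80406912, minus strand): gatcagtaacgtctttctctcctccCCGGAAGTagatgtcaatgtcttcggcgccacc
Cox6a1 (NRF1, chr5:115349041-115349100, minus strand): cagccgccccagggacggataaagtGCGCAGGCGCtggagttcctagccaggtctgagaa
Atp5j (YY1, chr16:84835032-84835089, minus strand): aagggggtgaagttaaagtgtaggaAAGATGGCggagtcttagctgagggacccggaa
Atp5h (NRF1, chr11:115420026-115420085, minus strand): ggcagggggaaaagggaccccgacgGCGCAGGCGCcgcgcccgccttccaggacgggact

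Summed over all members, the share of counted reads was highest in the ATF4 knockouts. It was 1.98% and 1.69% in ATF4 replicates 1 and 3, against 1.10, 1.03, 1.29 and 1.20% in control replicates 4, 5, 7 and 8. The share was 1.29% ± 0.0506 in ATF3 (SD, n = 5), 1.20% ± 0.0681 in CEBPG (n = 4) and 1.17% ± 0.0696 in CHOP knockouts (n = 5), next to 1.15% ± 0.116 in the controls (n = 4). The ATF4 libraries lay above every other library. All ATF3 libraries (1.25 to 1.38%) lay above all CHOP libraries (1.08 to 1.22%), and the other ranges overlapped. Both ATF4 libraries were also highest for complexes I, III, IV and V taken singly. Complex IV stood at 0.333% and 0.249% of reads in ATF4 against 0.113 to 0.17% in the controls, whereas complex II stood at 0.0978% and 0.111% in ATF4, within or just above the control range of 0.0899 to 0.101%.

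**Figure D1:**
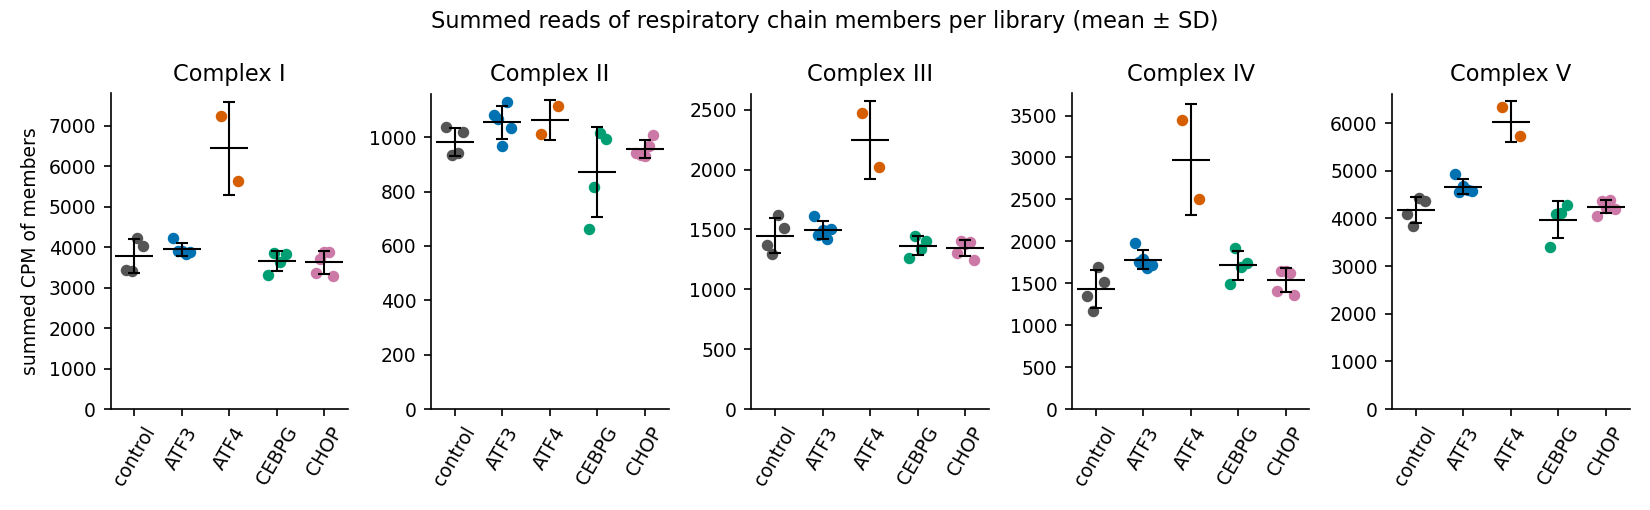
Summed CPM of the members of each complex (vertical axis, from 0), 1 panel per complex and 1 point per library, with the mean and SD of each group as bars. Both ATF4 points lie above all other points for complexes I, III, IV and V, and within the other groups for complex II.

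In ATF4 knockouts 65 of the 83 members were higher than in control and 0 were lower (edgeR, adjusted p below 0.05, with 70 higher and 0 lower at an unadjusted p below 0.05). Over all 16797 genes tested, 31.3% were called, 16.6% higher and 14.6% lower. The median change of the members was 0.85 on the log2 scale, a 1.81-fold increase, where the median of all genes was 0.00. In 75 members both ATF4 libraries lay above all 4 controls, which was so for 23.7% of all genes, and in Ndufs1 alone both lay below (21.1% of all genes). In 66 members both ATF4 libraries lay above all 18 other libraries, which was so for 8.88% of all genes.

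Complex I contributed 31 of 37 genes to the calls, with a median change of 0.91. Its accessory subunits, which surround the catalytic part and serve assembly and stability, were called in 28 of 30 cases (median 1.06), and its 7 nuclear core subunits, which hold the flavin and the iron-sulphur clusters, in 3 (Ndufs7, Ndufs8 and Ndufv2, median 0.44). Ndufc2, a membrane arm subunit (chr7:97400003-97407802 in GRCm38), was at 110, 102, 150 and 128 CPM in control replicates 4, 5, 7 and 8 and at 341 and 267 CPM in ATF4 replicates 1 and 3. Its change was 1.31 (SE 0.16, adjusted p = 1.15e-06), and the groups did not overlap. Ndufa11, also of the membrane arm, had 66.3 to 87.1 CPM in the controls and 182 and 148 CPM in ATF4 knockouts, a change of 1.18 (SE 0.15, adjusted p = 1.98e-06). Ndufs1, the largest core subunit, was at 162, 176, 182 and 147 CPM in the controls and 145 and 137 CPM in ATF4 knockouts. That change of -0.24 was not called (SE 0.15, adjusted p = 0.252), and the core subunits Ndufv1 (0.29) and Ndufs3 (0.44) were not called either.

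In complex II, 2 of 4 genes were called. Sdhb, the iron-sulphur subunit, was at 132, 114, 145 and 165 CPM in the controls and 245 and 224 CPM in ATF4 knockouts (0.76, SE 0.15, adjusted p = 0.000349), and the anchor Sdhc rose by 0.56 (SE 0.15, adjusted p = 0.00556). Sdha was at 486 to 623 CPM in the controls and 387 and 555 CPM in ATF4 knockouts, a change of -0.23 that was not called (adjusted p = 0.38), and the anchor Sdhd differed by 0.03 (adjusted p = 0.903).

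All 9 genes of complex III were called (median 0.73). The smallest adjusted p-values belonged to Uqcr10 and Uqcr11, subunits with a single membrane span. Uqcr11, whose ETS letters are shown above, was at 62.8, 49.2, 88.4 and 62.4 CPM in the controls and 173 and 116 CPM in ATF4 knockouts (1.13, SE 0.20, adjusted p = 0.000141). Changes of the catalytic subunits were smaller, at 0.61 for Cyc1, cytochrome c1, and 0.37 for Uqcrfs1, the Rieske iron-sulphur protein, and the core proteins Uqcrc1 and Uqcrc2 had 0.43 and 0.50.

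In complex IV, 10 of 16 tested genes were called (median 1.02). Cox8a, a small membrane subunit (chr19:7215153-7217616), was at 148, 119, 176 and 151 CPM in the controls and 414 and 311 CPM in ATF4 knockouts (1.28, SE 0.16, adjusted p = 1.56e-06). Cox4i1, which holds a site of regulation by ATP, had 288, 235, 356 and 295 CPM in the controls and 755 and 538 CPM in ATF4 knockouts (1.14, SE 0.15, adjusted p = 5.56e-06). The other calls were Cox5a, Cox5b, Cox6a1, Cox6b1, Cox6c, Cox7a2, Cox7b and Cox7c, from 0.75 to 1.24. Those not called were Cox7a2l (0.46, adjusted p = 0.0548) and the 5 alternative isoforms described further on.

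In complex V, 13 of 17 genes were called (median 0.84). Atp5j and Atp5h, of the peripheral stalk that holds the motor still, each changed by 1.10. Atp5j was at 177, 141, 188 and 198 CPM in the controls and 409 and 349 CPM in ATF4 knockouts (SE 0.13, adjusted p = 1.33e-06). The 3 c-ring genes Atp5g1, Atp5g2 and Atp5g3 rose by 0.76, 0.86 and 0.87. The large subunits of the catalytic head, alpha and beta, were not called. Atp5b was at 1438.1, 1400.2, 1429.6 and 1534.5 CPM in the controls and 1614.0 and 1711.6 CPM in ATF4 knockouts, a change of 0.20 (SE 0.11, adjusted p = 0.205), and Atp5a1 also changed by 0.20 (adjusted p = 0.197). Atp5s (-0.13) and Atp5sl (0.42) did not pass.

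**Figure D2:**
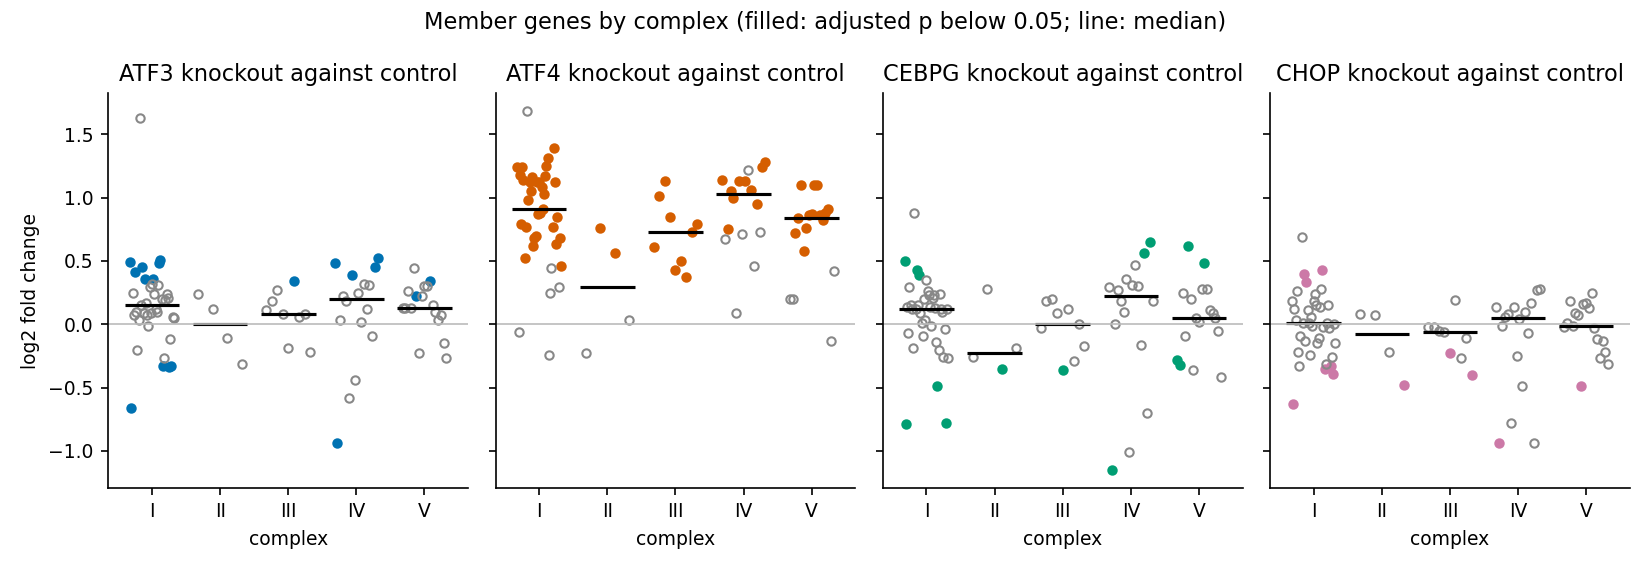
Log2 fold change of each tested member against control (vertical axis) by complex (horizontal axis), 1 panel per knockout, with called members filled and the median of each complex as a line. In the ATF4 panel 65 of 83 points are filled and all filled points lie above 0, while the other panels hold 12 to 19 filled points on both sides of 0.

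The members are short, with a median exonic length of 952.5 bp where all counted genes have 3123 bp, and the change in ATF4 knockouts followed length. Members up to 1500 bp were called higher in 51 of 60 cases (median 0.97) and longer ones in 14 of 23 (median 0.50). The Spearman correlation of change with length was -0.48 across the 83 members and -0.15 across 16626 genes with a length, a description across genes that share libraries. When a smooth of each library on gene length was included as an offset in the edgeR fit, 46 members were higher and 0 lower, against 15.2% and 14.6% of all genes, and the median change was 0.39. Under this offset Ndufc2 changed by 0.78 (adjusted p = 1.24e-05), Cox8a by 0.67 (adjusted p = 0.000771) and Atp5j by 0.68 (adjusted p = 1.56e-05). All 46 were among the 65 called without the offset. Complex I had 22 calls (median 0.48) and complex IV 9 (median 0.49), while complex III had 4 (median 0.30). The changes of Uqcr10 (0.39), Ndufa4 (0.19), Atp5g3 (0.32) and Atp5g2 (0.31) were no longer called. Length moved with the result, and its part in it was not tested beyond this fit.

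**Figure D3:**
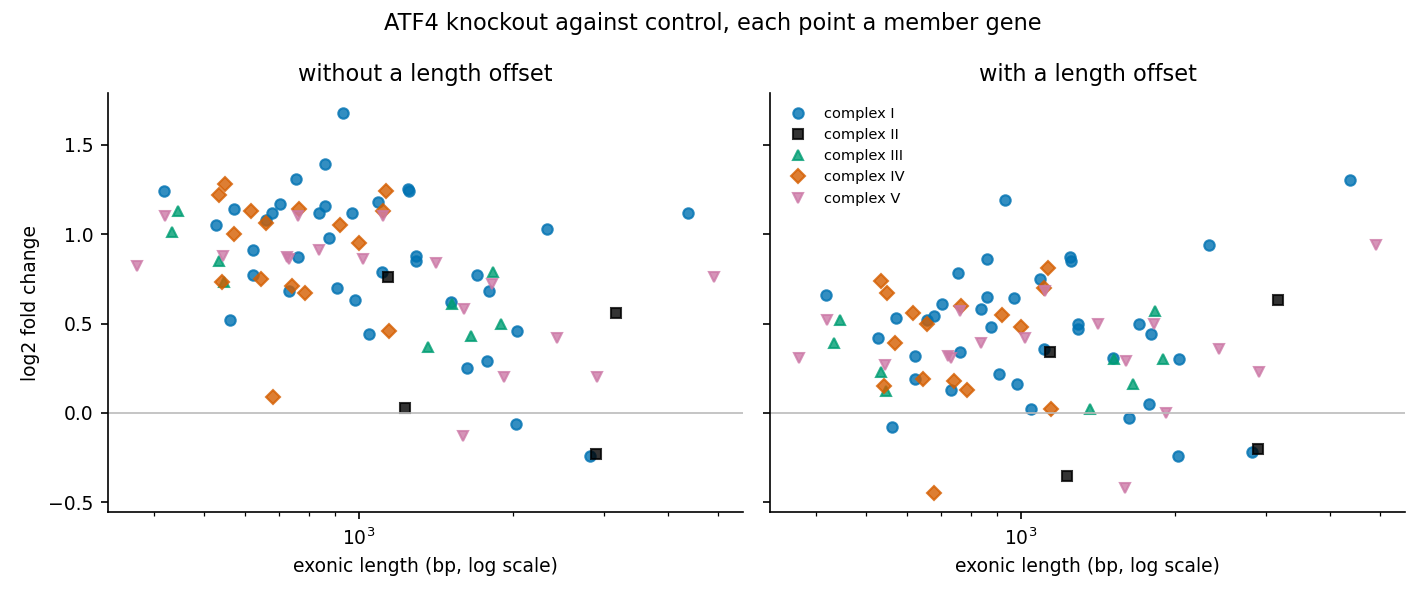
Log2 fold change in ATF4 knockouts against control (vertical axis) and exonic length in bp on a log scale (horizontal axis), 1 point per tested member by complex, without a length offset (left) and with it (right). Without the offset short members lie higher than long ones, and with it the points centre on a median of 0.39 with no slope along length.

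The ATF4 group has 2 libraries, so leaving out 1 of them leaves a single library that is assumed to vary like the other groups. Without replicate 1 the number of members higher was 47 and the median 0.62, and without replicate 3 the median was 1.02. Among 18 of the 65 calls that were followed singly, those of Sdhc (0.47), Cox7b (0.57), Atp5g1 (0.44) and Atp5g2 (0.59) were lost without replicate 1. Calls outside these 18 were lost as well and are not listed here, so other members named above may be among them. The authors' deposited table has headers that name no reference group, and the sources used here do not state its model. It may thus not be the same comparison. It holds 0 of the 83 members with an FDR below 0.05 for ATF4, where 5.77% of its 17100 genes pass. In that deposited table of the authors, the ATF4 log fold change is positive for 69 of the 83 members, with a median of 0.27, and Atp5j has 0.66 with an FDR of 0.0777. In the ATF4 knockouts the rod markers fell as given above, and ganglion cell markers were called higher in 8 of 14 cases and lower in 0. Of the Müller glia markers 7 of 12 were higher, as were 8 of 12 amacrine and 9 of 11 T and NK lymphocyte markers. The 12 Müller glia markers held 1.19 and 1.39% of reads in ATF4 libraries against 0.622 to 0.979% in the controls. Apoe alone had 5987.6 to 9594.1 CPM in ATF4 libraries, where the 12 markers summed to 12019.3 to 14378.2 CPM. In ATF3 libraries the share was similar, at 1.17 to 1.34%, with 2 of 12 markers higher and 5 lower than in control.

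Subunits of complex IV exist in isoform pairs, in which the alternative form is typical of muscle, lung or testis or responds to hypoxia. The common forms Cox4i1, Cox6b1 and Cox7a2 rose in ATF4 knockouts by 1.14, 1.13 and 1.06, and Cox6a1 was called too (adjusted p = 1.89e-05). Cox4i2, the lung and hypoxia form of subunit 4 (chr2:152754173-152765037), was at 21.1, 19.3, 26.8 and 16.6 CPM in control replicates 4, 5, 7 and 8, at 38.0 and 28.5 CPM in ATF4 replicates 1 and 3, and below all controls in every library of the other knockouts. It had 10.2 to 11.7 CPM in ATF3, 5.9 to 12.7 CPM in CEBPG and 7.74 to 14.8 CPM in CHOP libraries. Against control it fell by 0.94 in ATF3 (SE 0.24, adjusted p = 0.00361), by 1.15 in CEBPG (SE 0.26, adjusted p = 0.00114) and by 0.94 in CHOP (SE 0.24, adjusted p = 0.00337), 3 comparisons that share the controls. In ATF4 knockouts it differed by 0.67, which was not called (adjusted p = 0.0998). The authors' deposited table, whose headers name no reference group, gives -0.14, -0.65 and -0.08 for Cox4i2 in ATF3, CEBPG and CHOP, none with an FDR below 0.05.

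The remaining alternative forms were low. Cox6a2, the heart and muscle form, had 0.847 to 5.69 CPM over all libraries. Cox6b2, a testis form, varied among the controls from 2.7 to 12.9 CPM and stood at 3.01 to 4.72 CPM in CEBPG knockouts (-1.01, adjusted p = 0.0523). Cox7a1, of heart and muscle, ran from 0.27 to 3.65 CPM and Cox7b2 from 0 to 1.11 CPM. None of these was called in any of the 4 comparisons with control. Ndufa4l2, the hypoxia form of Ndufa4, was at 0.99, 1.78, 1.11 and 0.447 CPM in the controls and at 3.64, 2.2, 2.25, 4.4 and 4.07 CPM in ATF3 replicates 5 to 9, a separation of the groups that was not called at this depth (log2 change 1.63, SE 0.86, adjusted p = 0.156). Ndufa4 itself was at 182 to 239 CPM in the controls and 391 and 321 CPM in ATF4 knockouts (0.77, SE 0.14, adjusted p = 0.00024).

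**Figure D4:**
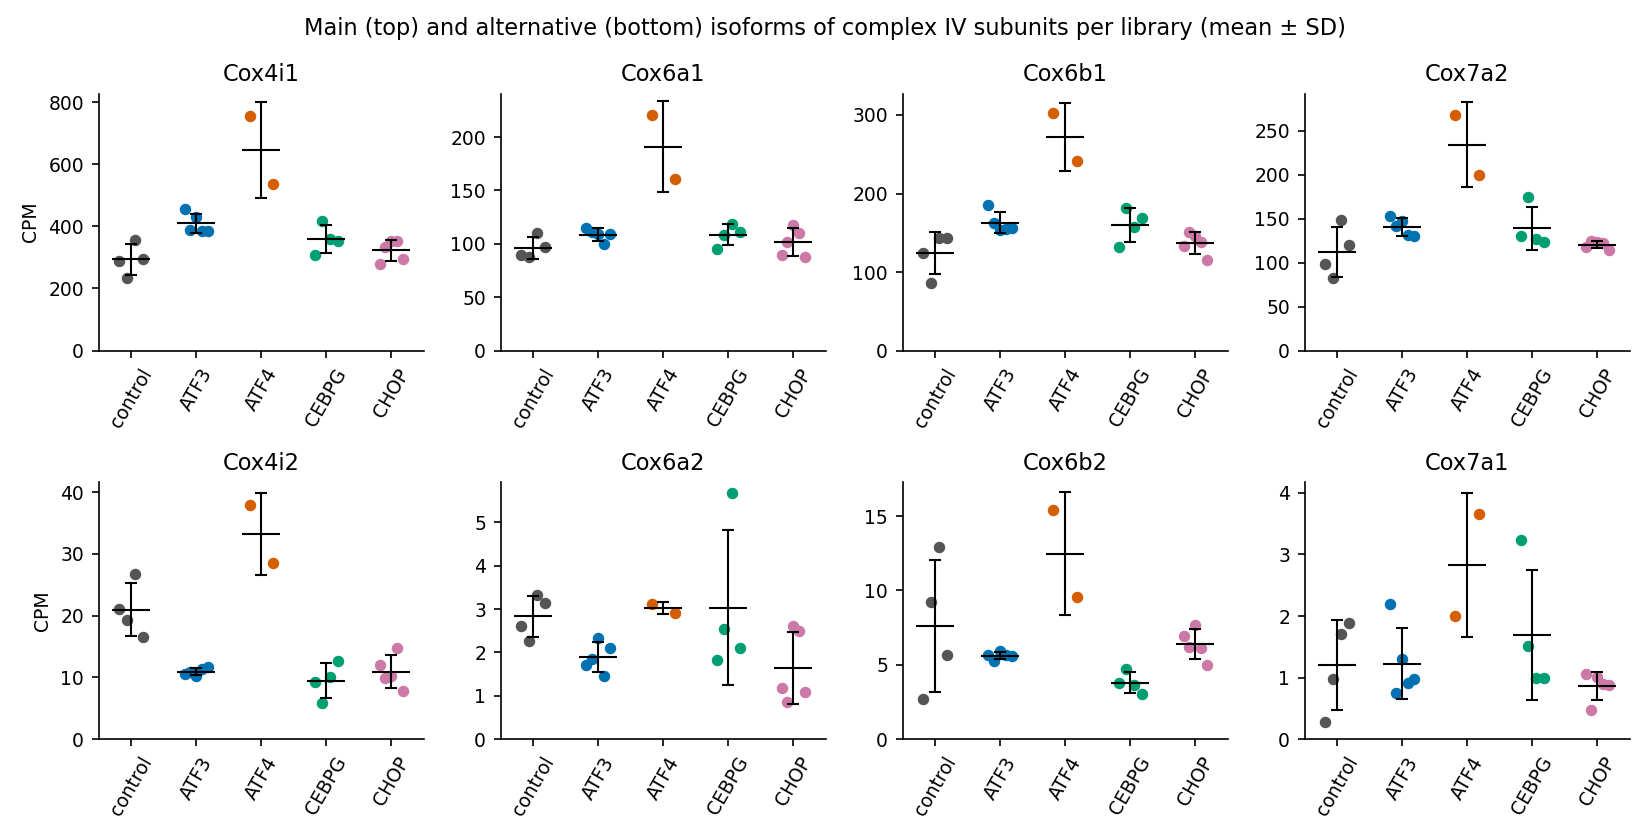
CPM per library (vertical axes, from 0, with different scales) of 4 common complex IV forms (top) and their alternative forms (bottom), with the mean and SD of each group. The common forms are highest in the 2 ATF4 libraries, and Cox4i2 is lower in every ATF3, CEBPG and CHOP library than in every control.

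Against control, ATF3 knockouts had 14 members higher and 5 lower (edgeR, background 18.6% and 14.8% of genes, 33.4% in either direction), with a median of 0.13 next to 0.06 for all genes. The count of higher members was near the background share and that of lower members below it. With the length offset 21 were higher and 7 lower (16.5% and 17.6% of genes), with a median of 0.12. The higher count then lay above its background share and the lower count below. Scaling by total counts gave 19 higher and 4 lower. Ndufc2 was higher at 194, 167, 165, 174 and 174 CPM in replicates 5 to 9, above all controls (0.51, SE 0.13, adjusted p = 0.00289), and Cox8a at 203 to 244 CPM (0.52, SE 0.13, adjusted p = 0.00236). Cox4i1 (0.48), Ndufc1 (0.48), Cox6b1 (0.39), Atp5j (0.34), Uqcrc2 (0.34) and Atp5f1 (0.22) were among the others called higher. The lower members included Cox4i2 and genes of complex I. Ndufa10, an accessory subunit bound to the matrix side, was at 150, 188, 181 and 203 CPM in the controls and at 117, 112, 104, 112 and 126 CPM in ATF3 knockouts (-0.66, SE 0.13, adjusted p = 0.000419). The core subunits Ndufs7 (-0.34) and Ndufv1 (-0.33) were lower too. Without control replicate 5 the count of higher members was 3, without control replicate 7 it was 23 (and 3 lower), without control replicate 4 it was 9 and without ATF3 replicate 5 it was 8. Leaving out control replicate 5 ended the calls of Ndufc1, Uqcrc2, Cox6b1, Atp5j and Atp5f1, and leaving out control replicate 7 ended that of Ndufs7. The call of Ndufv1 depended on each of ATF3 replicates 6 to 9 and control replicates 5, 7 and 8. That of Cox6b1 depended also on ATF3 replicates 5 and 6 and control replicate 4, that of Atp5j on ATF3 replicate 5, and that of Atp5f1 on every library of the 2 groups but ATF3 replicate 8. In this comparison 9 of 12 amacrine and 11 of 11 T and NK lymphocyte markers were higher, and 9 of 11 cone markers were lower.

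CEBPG knockouts had 7 members higher and 8 lower than control (background 18.3% and 15% of genes, 33.4% in either direction), both below the background share, with a median of 0.11. Among members up to 1500 bp 7 were higher and 1 lower, and among longer ones 0 were higher and 7 lower. With the length offset these counts were 7 and 5 for the shorter and 2 and 7 for the longer members. Ndufv1, the flavin-binding subunit of complex I, had the smallest adjusted p. It was at 238, 319, 293 and 321 CPM in the controls and at 197, 130, 173 and 182 CPM in CEBPG replicates 6, 8, 9 and 10 (-0.78, SE 0.13, adjusted p = 3.72e-05). Ndufa10 fell by 0.79 (SE 0.14, adjusted p = 0.0001), and Uqcrc1 (-0.36), Sdhc (-0.35), Atp5b (-0.32) and Atp5a1 (-0.28) were also lower. Cox7c, a small subunit of complex IV, was at 57.7 to 88.3 CPM in the controls and 104, 133, 106 and 113 CPM in CEBPG knockouts (0.65, SE 0.15, adjusted p = 0.00153), and Atp5e (0.62), Cox7b (0.56), Ndufa1 (0.50), Atp5j (0.48) and Ndufa8 (0.39) were higher too. With the length offset 9 members were higher and 12 lower (18.4% and 16.1% of genes), the median was -0.04, and the change of Ndufa1 (0.24) was no longer called. In the same comparison 12 of 12 bipolar markers were lower, as were 10 of 11 cone markers and 8 of 12 Müller glia markers (2 higher), and 11 of 11 T and NK lymphocyte markers, 8 of 12 amacrine markers (1 lower) and 9 of 15 microglia markers were higher.

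Several of these CEBPG calls rested on few libraries. Without CEBPG replicates 6 and 8 the changes of Atp5b (-0.14), Atp5a1 (-0.11), Sdhc (-0.16), Uqcrc1 (-0.26), Cox7b (0.43), Atp5e (0.49) and Ndufa1 (0.45) were no longer called, while those of Ndufv1, Ndufa10, Cox7c, Cox4i2, Atp5j and Ndufa8 were. The higher count was 2 without control replicate 5, 3 without CEBPG replicate 8, 13 without CEBPG replicate 6 and 14 without control replicate 7. Leaving out a single library ended the calls of Atp5a1 (CEBPG replicate 6 or control replicate 4), Sdhc (CEBPG replicate 6 or control replicate 7 or 8), Ndufa8 (CEBPG replicate 8 or control replicate 5 or 8), and Ndufa1, Cox7b and Atp5e (CEBPG replicate 8 or control replicate 5). In the authors' deposited table for CEBPG, 9 members are higher and 7 lower at an FDR below 0.05 (22.1% of its genes pass in either direction), among them Ndufv1 at -0.73, Ndufa10 at -0.70 and Cox7c at 0.64.

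CHOP knockouts had 3 members higher and 9 lower than control (background 18.1% and 15.4%, 33.5% in either direction), with a median of -0.01. The lower members included Ndufa10 at 104, 108, 131, 144 and 96.5 CPM in replicates 1 to 5 (-0.63, SE 0.13, adjusted p = 0.000642). Of the 7 core subunits of complex I 3 were lower and the median was -0.31. The membrane anchor Sdhd was at 126 to 168 CPM in the controls and 96.1 to 122 CPM in CHOP knockouts (-0.48, SE 0.12, adjusted p = 0.0032). Atp5g1 (-0.49), Uqcrq (-0.40) and Uqcrc1 (-0.23) were lower as well, and the 3 higher members were the complex I subunits Ndufc2 (0.43), Ndufa6 (0.40) and Ndufa8 (0.33). With the length offset 14 members were higher and 6 lower (16.6% and 17.8% of genes), and the changes of Uqcrc1 (-0.14) and Uqcrq (-0.31) were no longer called. Without control replicate 5 the counts were 0 higher and 13 lower, without control replicate 7 they were 5 higher, and without CHOP replicate 3 or 4 or control replicate 4 or 8 they were 1 higher. The calls of Ndufc2, Ndufa6 and Ndufa8 were lost without control replicate 5, those of Ndufa6 and Ndufa8 also without CHOP replicate 3 or 4 or control replicate 4 or 8, that of Ndufa8 without CHOP replicate 1, that of Uqcrq without CHOP replicate 1 or 5 or control replicate 7 or 8, and that of Uqcrc1 without CHOP replicate 1 or 5 or control replicate 8. Here 9 of 12 amacrine and 11 of 11 T and NK lymphocyte markers were higher, and 10 of 12 bipolar and 9 of 11 cone markers were lower. In the authors' deposited table no member passes for CHOP (7.3% of genes) and 2, Ndufc1 at 0.71 and Ndufa6 at 0.76, pass for ATF3 (7.99%).

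Within batch 3, ATF3 against CHOP gave 0 members higher and 0 lower (edgeR, background 1.51% and 0.756%, 2.26% in either direction), with 7 higher and 0 lower at an unadjusted p below 0.05 and 1 higher and 0 lower by DESeq2. The differences were small and mostly of 1 sign, positive in 80 of 83 members with a median of 0.15 where all genes had -0.01. All 5 ATF3 libraries lay above all 5 CHOP libraries in 15 members and below in 0, against 4.47% and 3.6% of all genes. With the length offset 53 of 83 were positive, the median was 0.04, and 0 were called (1.49% of genes higher and 0.786% lower). Of the bipolar markers 11 of 12 were higher and 1 lower in ATF3 than in CHOP (median 1.31), and 10 of 15 rod markers were lower (median -0.87). Their part in the member differences was not tested.

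ATF3 against CEBPG gave 8 members higher and 0 lower (background 10.1% and 10.2%, 20.4% in either direction, with 11 higher and 1 lower at an unadjusted p below 0.05, and 1 lower by DESeq2), with a median of 0.06. With the length offset 11 were higher and 0 lower (8.81% and 12.6% of genes). Atp5b was at 1635.0, 1548.4, 1593.3, 1594.9 and 1558.3 CPM in ATF3 replicates 5 to 9 and at 914, 1150.2, 1312.1 and 1259.4 CPM in CEBPG replicates 6, 8, 9 and 10 (0.45, SE 0.09, adjusted p = 0.00077). Its partner in the catalytic head, Atp5a1, was at 814 to 863 CPM against 540, 599, 679 and 704 CPM (0.41, SE 0.09, adjusted p = 0.00175). Ndufv1 (0.45), Sdha (0.50), Uqcrfs1 (0.35), Ndufc2 (0.38), Ndufs1 (0.35) and Ndufv3 (0.32) were higher too. Markers of other cells also differed, with 10 of 12 bipolar (median 1.53), 8 of 12 amacrine, 8 of 12 Müller glia (1 lower) and 5 of 11 cone markers higher in ATF3, and 6 of 15 microglia (1 higher) and 11 of 11 T and NK lymphocyte markers lower. CEBPG replicate 6 had the lowest value of its group in Atp5b, Atp5a1, Sdha and Uqcrfs1. Without CEBPG replicate 6 the count was 3 and the changes of Sdha (0.34, adjusted p = 0.0508), Uqcrfs1 (0.24, adjusted p = 0.0859) and Ndufc2 (0.31, adjusted p = 0.108) were no longer called. Without CEBPG replicates 6 and 8 it was 2, and of the 8 calls that of Atp5b held. The counts were 4 without ATF3 replicate 5, where Uqcrfs1 and Ndufc2 were lost, and 5 without ATF3 replicate 8 or 9, where Ndufc2 was lost. Ndufc2 was also lost without CEBPG replicate 9. The calls of Ndufs1 and Ndufv3 were both lost without any single ATF3 replicate from 5 to 9, and without CEBPG replicate 6. Without ATF3 replicate 6 or 7, these were the only losses, and 6 of the 8 calls held.

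CEBPG against CHOP gave 5 members higher and 3 lower (background 13.5% and 13.2%, 26.7% in either direction), with a median of 0.10. Ndufa3 was at 61.1, 62.2, 63.6 and 61.7 CPM in CEBPG replicates 6, 8, 9 and 10 and at 46.8, 46.2, 52.0, 44.9 and 37.4 CPM in CHOP replicates 1 to 5 (0.45, SE 0.13, adjusted p = 0.0123), and Atp5e (0.53), Cox7c (0.38), Ndufa2 (0.37) and Atp5j2 (0.32) followed. The lower ones were Ndufv1 (-0.39, SE 0.12, adjusted p = 0.0189), Atp5b (-0.33, SE 0.09, adjusted p = 0.00722) and Atp5a1 (-0.26, SE 0.09, adjusted p = 0.0284). The Spearman correlation of change with length was -0.45 across members, and with the length offset 0 members were higher and 9 lower (14.7% and 11.5% of genes), with a median of -0.09 and none of the 5 higher members called. Without CEBPG replicates 6 and 8 the counts were 3 and 0, and of the 8 calls that of Ndufa3 held. Ndufa2, Cox7c and Atp5j2 were lost without CEBPG replicate 8 or 10 or CHOP replicate 1 or 5, Atp5e without CEBPG replicate 8 or CHOP replicate 1 or 5, and Cox7c and Atp5j2 also without CHOP replicate 4. Atp5j2 was lost without CEBPG replicate 9, Ndufv1 without CEBPG replicate 8 or CHOP replicate 4, and Atp5a1 without CEBPG replicate 6 or 8 or CHOP replicate 2, 4 or 5. The count of higher members was 1 without CHOP replicate 1 or 5, 2 without CEBPG replicate 8 or 10 and 3 without CHOP replicate 4, and that of lower members was 1 without CEBPG replicate 8 or CHOP replicate 4. In the CEBPG knockouts the T and NK lymphocyte markers held 0.157 to 0.226% of reads, against 0.0284 to 0.0443% in CHOP and 0.0273 to 0.0337% in ATF3 knockouts, and 11 of 11 tested were called in each of these comparisons, with none of the 11 at 0 in a library of these groups. In CEBPG against CHOP 13 of 15 microglia markers were also higher, and 12 of 15 rod, 9 of 12 amacrine, 8 of 12 Müller glia (2 higher) and 5 of 11 cone markers (1 higher) were lower. The part of these cells in the member differences was not tested.

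**Figure D5:**
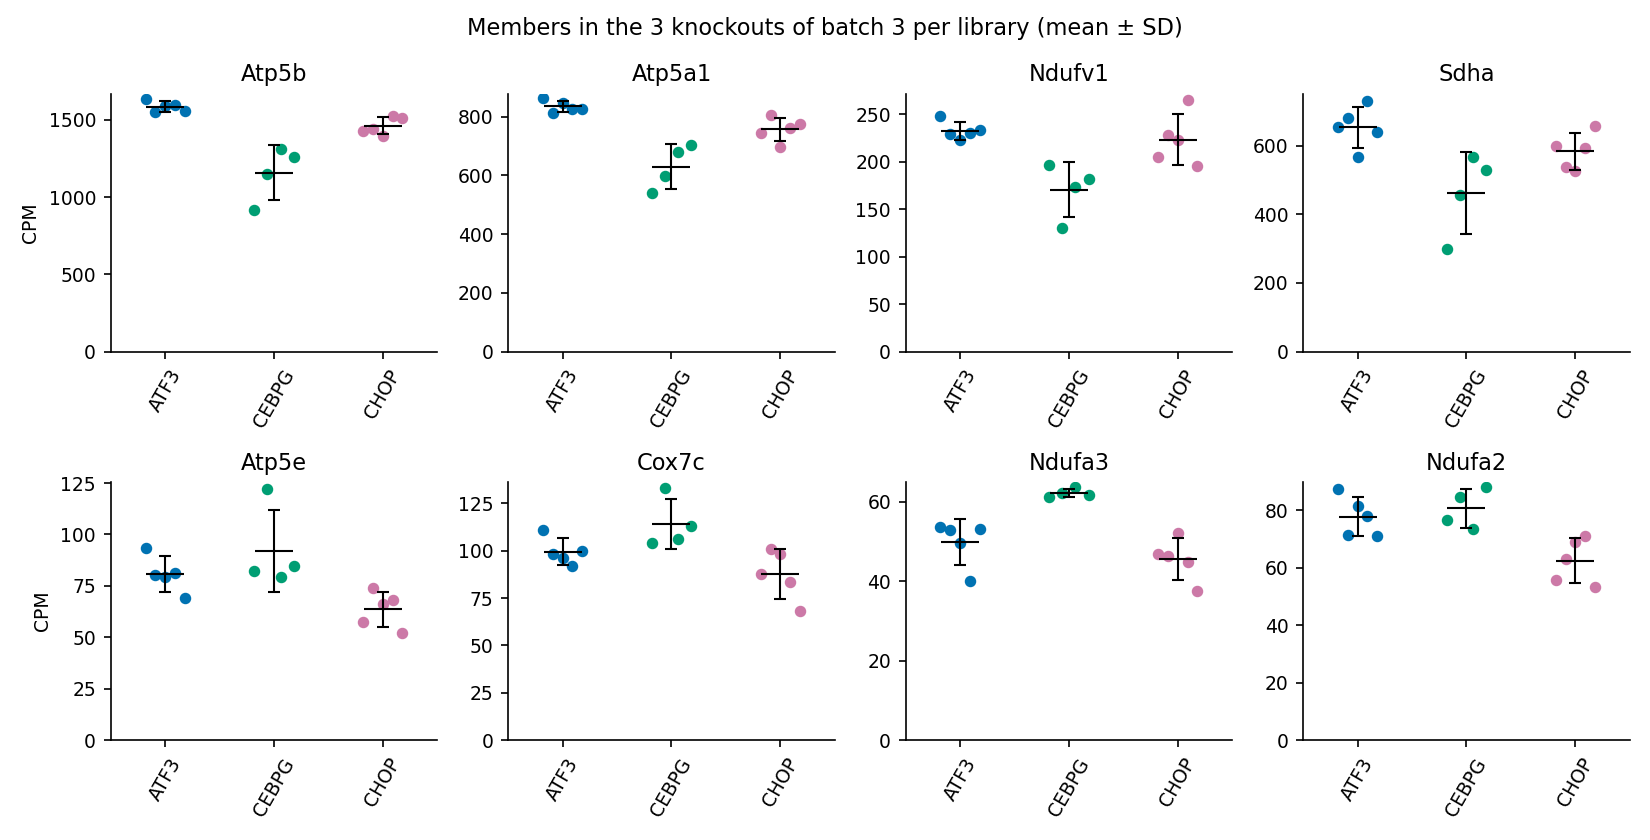
CPM per library (vertical axes, from 0) of 8 members in the ATF3, CEBPG and CHOP knockouts of batch 3, with the mean and SD of each group. All CEBPG points lie below all ATF3 points for Atp5b, Atp5a1 and Ndufv1, and below all CHOP points for Atp5b. For Atp5a1 and Ndufv1 they overlap CHOP points, and for Sdha they overlap points of both other groups. For Ndufa3 all CEBPG points lie above the other points. CEBPG replicate 6 is the lowest of its group for Atp5b, Atp5a1 and Sdha.

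The assembly factors of the chain are proteins that build the complexes without staying in them. Of 41 tested in ATF4 knockouts, 6 were higher and 1 lower, with a median of 0.05, where 16.6% of all genes were higher and 14.6% lower. Uqcc2, for complex III (1.25, SE 0.17, adjusted p = 7.80e-06), Cox14 (1.13) and the copper chaperone Cox17 (0.99) were higher, and Cox15, of heme A synthesis, was lower (-0.91, SE 0.18, adjusted p = 0.000401). In ATF3, CEBPG and CHOP knockouts 2, 2 and 1 were higher and 8, 8 and 10 lower, with medians of -0.23, -0.21 and -0.18. Of all genes 18.6, 18.3 and 18.1% were higher and 14.8, 15 and 15.4% lower. Among the lower assembly factors, Sdhaf1, for the iron-sulphur clusters of complex II, changed by -0.74, -0.80 and -0.98 and the complex IV factor Coa7 by -0.94, -1.13 and -0.95, in comparisons that share the controls.

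Of 14 regulators of mitochondrial biogenesis and mitochondrial transcription, 1 was higher and 6 lower in ATF4 knockouts (all genes 16.6% and 14.6%), with a median of -0.61. Ppargc1b, a coactivator of respiratory genes, changed by -1.48 (SE 0.24, adjusted p = 6.04e-05), and Nrf1, the factor whose letters are shown in the promoters above, by -0.89 (SE 0.25, adjusted p = 0.00892), whereas the nuclear receptor Esrra rose by 0.72 (SE 0.26, adjusted p = 0.0359). Esrrb, a nuclear receptor known from rod photoreceptors, fell by 2.69 (SE 0.53, adjusted p = 0.000378). In ATF3, CEBPG and CHOP knockouts 1, 0 and 1 regulators were higher and 3, 4 and 3 lower (all genes 18.6, 18.3 and 18.1% higher and 14.8, 15 and 15.4% lower), with Ppargc1b at -1.50, -1.60 and -1.48 and Nrf1 at -1.01, -0.61 and -0.89. Enzymes of the citric acid cycle, which supply the chain with NADH and succinate, had 3 higher and 4 lower of 16 in ATF4 knockouts (all genes 16.6% and 14.6%). Suclg1 (0.56) and Idh3g (0.56) were higher and Ogdh (-0.72), a subunit of the oxoglutarate dehydrogenase, was lower. Within batch 3 they gave 5 higher and 0 lower in ATF3 against CEBPG (all genes 10.1% and 10.2%), among them Ogdh at 0.42, and 0 higher and 3 lower in CEBPG against CHOP (all genes 13.5% and 13.2%), with Ogdh at -0.38. The 13 subunits encoded by mitochondrial DNA were not analysed here.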

How the data were processed

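Per the labels' protocols, papain was used to dissociate the retinas, fluorescence sorting gave the ganglion cells, and SMART-Seq v4 the cDNA. The submitters' processing notes name STAR, Picard, HTSeq, edgeR and build mm10 without versions or settings. The deposited values are whole-number counts per gene from the authors, unnormalised. The authors' comparison table holds fold changes, taken as log2, and p-values with FDR values, per the file headers, which do not name the reference group. The sample sheet gives sex, batch, age and the duplicate fraction that the authors recorded (48.0 to 57.6% of read pairs), and 42 of its columns were not used.

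Counts of 20 libraries were fitted together in edgeR 4.0.16 (R 4.3.3) by the quasi-likelihood test, with TMM scaling and the low-count filter at a minimum count of 10. This kept 16797 genes. P-values were adjusted over all of them (Benjamini-Hochberg), and a gene was called at an adjusted p below 0.05. CPM use TMM-scaled library sizes. One library whose title (control) and genotype (CHOP knockout) conflict was left out. Lengths and positions are from GENCODE M21 (GRCm38). A length is the union of the exons of a gene's coding transcripts in the basic set, or of all its basic transcripts where none is coding. Changes of 1 on the log2 scale were also simulated over 16797 genes for the comparisons with control. They were recovered in 46% (ATF3), 30% (ATF4), 44% (CEBPG) and 49% (CHOP) of cases. The percentages of false calls were 0.833 (ATF3), 3.16 (ATF4), 2.5 (CEBPG) and 6.2 (CHOP). Recovery was not computed for the members alone, so these shares do not describe how often a change in a member would be found.

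The members and lists were chosen with earlier results of these data known. Named for each comparison were the 2 called members of each complex with the smallest adjusted p in each direction, members called against the majority of their complex, isoform families, members the filter removed, and the highest and lowest level per length of each complex. From the lists, up to 3 called genes per direction were named. Other members were named after their values were seen. Alternatives were other scalings, no filter, a length offset, a replicate block, fits of 2 groups, DESeq2 1.42.0, and leaving out libraries. Results of some genes that this rule names are not reported here.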

Additional observations from a re-analysis of the deposited data

Results flagged for a closer look

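Of 188 values examined in groups of 4 or 5 libraries, 16 had a library standing apart from the rest of its group. Chance gives about 1 in 20 for independent values. The values here share libraries, and the sums contain single members, so the count cannot be judged against that rate. In 8 of these 16 the library was an ATF3 one. ATF3 replicate 5 was high for all members summed (13830.1 CPM), complex I summed (4223.0 CPM), Cox7b (143 CPM), Cox8a (244 CPM), Ndufa6 (107 CPM), Uqcrc2 (247 CPM) and Uqcrfs1 (166 CPM), and ATF3 replicate 8 was low for Ndufa3 (39.9 CPM). CEBPG replicate 8 was high for Atp5e (122 CPM), Cox7a2 (175 CPM), Ndufa1 (80.5 CPM) and Uqcrq (129 CPM). CEBPG replicate 6 was low for Cox8a (127 CPM), Ndufa8 (129 CPM) and Uqcrc1 (270 CPM). Control replicate 7 was high for Ndufa11 (87.1 CPM).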

How the results depend on the processing

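The 65 higher members in ATF4 knockouts numbered 46 (length offset) to 66 (upper quartile or total count scaling) under the alternatives run. Leaving out single libraries gave 47 to 64 higher, where the fits with 1 ATF4 library take their spread from the other groups. For the other comparisons, leaving out single libraries gave these ranges: ATF3 against control 3 to 23 higher and 3 to 6 lower, CEBPG against control 2 to 14 and 7 to 12, CHOP against control 0 to 5 and 7 to 13, ATF3 against CEBPG 3 to 9 and 0, CEBPG against CHOP 1 to 6 and 1 to 4, and ATF3 against CHOP 0 and 0. Same-numbered libraries did not deviate together (correlations from -0.0476 to 0.0264), and the replicate block gave 6 higher and 2 lower in ATF3 against control, 0 and 0 in CHOP against control, and 3 higher in ATF3 against CEBPG. Fits of 2 groups gave 8 lower in ATF3 against control, 2 higher and 5 lower in CEBPG against control, 2 higher in ATF3 against CHOP and 1 lower in CEBPG against CHOP. Scaling by total counts gave 16 higher in CEBPG against control, 5 higher in CHOP against control, and 5 higher and 1 lower in ATF3 against CEBPG. Library sizes without rod genes gave 14 lower in CEBPG against control and 2 higher and 5 lower in CEBPG against CHOP, where upper quartile scaling gave 2 higher. The length offset gave 14 higher in CHOP against control and 0 higher and 9 lower in CEBPG against CHOP. Without CEBPG replicates 6 and 8 there were 4 lower in CEBPG against control, 2 higher in ATF3 against CEBPG, and 3 higher and 0 lower in CEBPG against CHOP. DESeq2 gave 14 lower in CEBPG against control, 1 higher in ATF3 against CHOP, 1 lower in ATF3 against CEBPG and 8 higher in CEBPG against CHOP. The cause of these shifts was not tested. Of 1145 refits of the 68 named calls, 964 passed the threshold again, 181 did not and 0 changed sign. In members near 1 CPM, such as Cox7a1 and Ndufa4l2, the standard errors of 0.76 to 1.02 on the log2 scale limit what could be detected.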
